A study of Ovis aries with 36 samples.

Results

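Of the 26478 sheep gene IDs in the deposited counts, 7 genes are described here: ENSOARG00020010269, ENSOARG00020007456, ENSOARG00020019510, ENSOARG00020023921, ENSOARG00020025419, ENSOARG00020006897 and ENSOARG00020025432. They were chosen for their differences between sexually active and not active rams over 3 tissues, so those differences are given as a description, with no test. RNA was sequenced from pineal gland, pars tuberalis and hypothalamus of 12 adult Rasa Aragonesa rams, a Spanish breed, of which 6 were labelled sexually active and 6 not active. Each ram gave 1 library per tissue, so each of the 6 groups of tissue and state holds 6 animals (animals 1 to 6 active, animals 7 to 12 not active). No treatment is labelled, and how sexual activity was scored is not given in the sources used here. The IDs are not paired with gene names in the files, and none of them matched the reference gene table, so the function, position and sequence of the 7 genes are not given here.

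The pineal gland makes melatonin at night and so passes day length on to the rest of the body. The pars tuberalis is the pituitary tissue with dense melatonin receptors, where the length of the melatonin signal is turned into a seasonal signal to the neighbouring hypothalamus. The hypothalamus holds the neurons that release gonadotropin-releasing hormone and the circuits of male sexual behaviour. Sheep breed by season, and these 3 tissues are links of the chain from photoperiod to reproduction.

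Depth, in units of 1e+06 counts per library, ran from 19.3 to 73.0 (median 31.1). In the pars tuberalis its median was 31.3 in active and 26.1 in not active rams. Gene sets restricted to 1 tissue, defined from these same libraries, stood at 55.9% or more of the tissue's median in every library of their own tissue. Among the hypothalamus libraries, the one of active animal 4 held pars tuberalis genes at 17.1% of their own level, where the next had 1.99%. Among the pineal libraries, the one of not active animal 10 held hypothalamus genes at 8.95%, where the next had 1.57%. None of the 7 genes belongs to any of these sets, and all 7 passed the filter on low counts, which kept 16773 IDs. Levels are counts scaled to a library of 1e+06 counts (CPM). They are compared between libraries of 1 gene and not between genes, since gene length is not used. In bulk tissue, fewer cells of a type and less RNA per cell cannot be told apart.

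**Figure D1:**
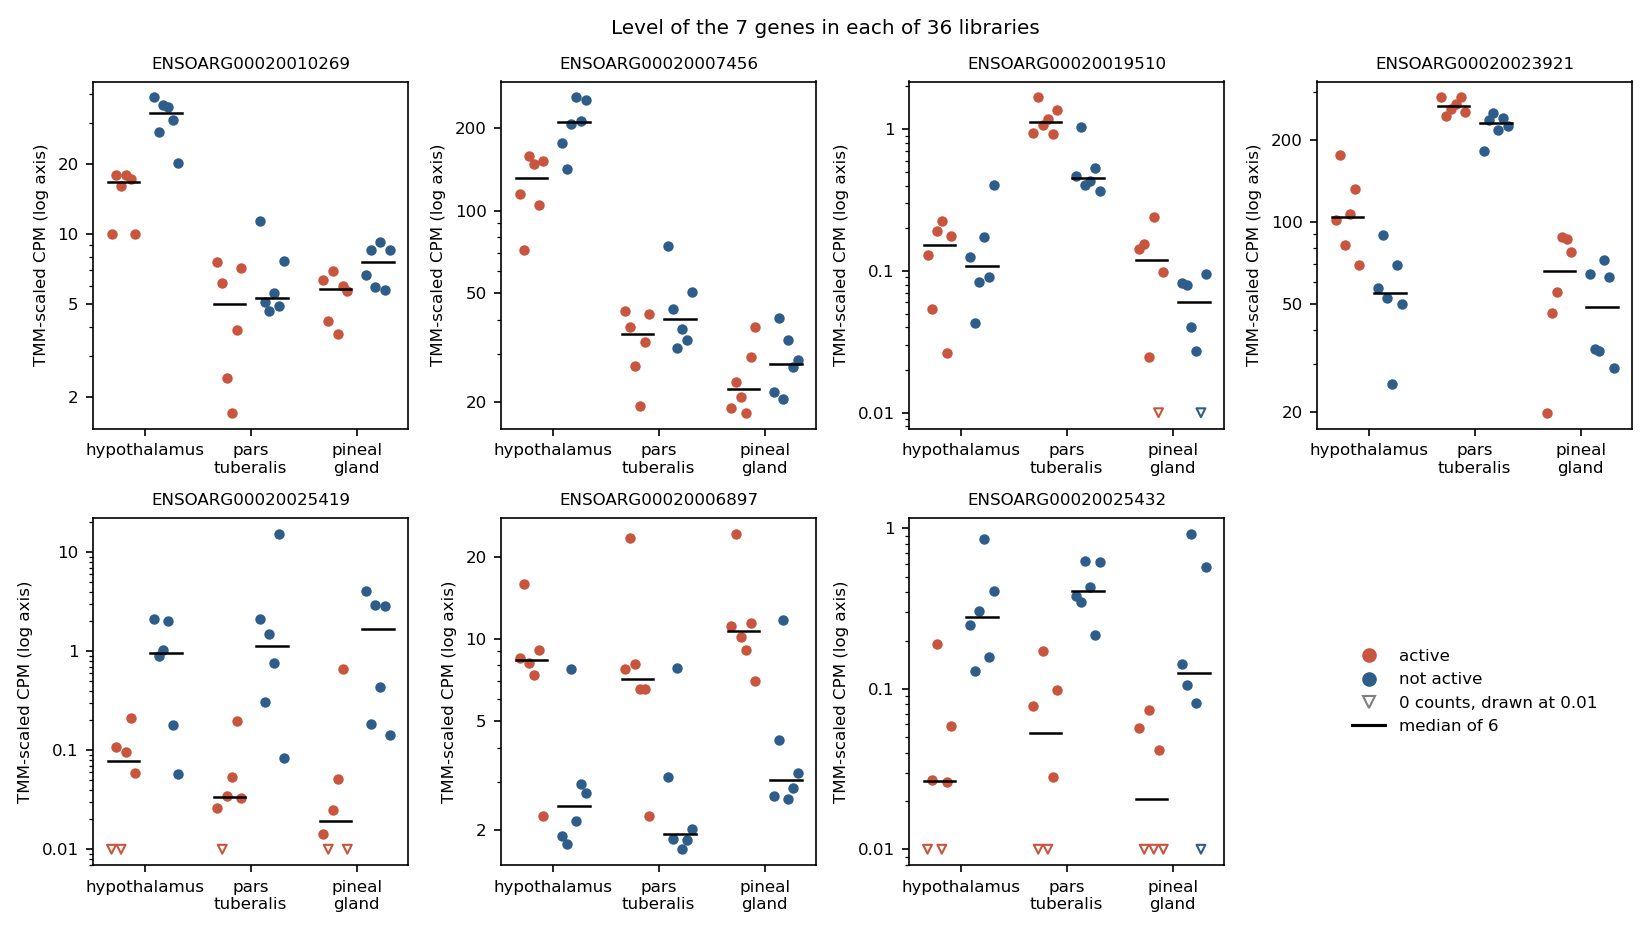
Scaled counts (CPM, log axis) of each of the 7 genes in every library, by tissue, with active rams in red and not active rams in blue; each point is 1 library, lines are medians of 6, and open triangles are libraries with 0 counts, drawn at 0.01. The groups lie apart for ENSOARG00020010269 in the hypothalamus and for ENSOARG00020025432 in the pars tuberalis, and overlap in every other gene and tissue.

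For 4 of the genes, active rams had lower fitted means in all 3 tissues. They were ENSOARG00020010269, ENSOARG00020007456, ENSOARG00020025419 and ENSOARG00020025432. Over all tested genes 17.8% had a fitted difference below 0 in every tissue. ENSOARG00020023921 and ENSOARG00020006897 were higher in active rams in all 3 tissues, a direction that 18.5% of tested genes shared. ENSOARG00020019510 stood higher in active rams in 2 tissues, pars tuberalis and pineal gland, and had -0.18 on the log2 scale in the hypothalamus. The groups did not overlap for 1 of the 7 genes in the hypothalamus, for 1 in the pars tuberalis and for 0 in the pineal gland. In both cases the active rams were the lower ones, and over all tested genes 0.0715%, 0.0656% and 0.0238% were apart in that direction in the same order. Since the genes were picked on these values, nothing is read from these counts.

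ENSOARG00020010269 differed most in the hypothalamus. There it ran from 9.96 to 17.9 CPM (median 16.6) in active and from 20.2 to 38.6 CPM (median 32.9) in not active rams. Every active ram lay below every not active ram. The fitted difference was -1.08 on the log2 scale (SE 0.28), a 2.11-fold lower level in active rams. In the pars tuberalis the gene ran from 1.71 to 7.62 CPM in active (median 5.00) and from 4.68 to 11.4 CPM in not active rams (median 5.34). In the pineal gland the ranges were 3.72 to 6.97 (median 5.83) and 5.77 to 9.22 CPM (median 7.61). The groups overlapped in both tissues, with log2 differences of -0.44 (SE 0.28) in each. In the pars tuberalis the difference was -0.21 without not active animal 7, the highest of the 12, and that of the group medians was -0.13.

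ENSOARG00020007456 showed its widest gap in the hypothalamus too. It ran from 71.6 to 158 CPM (median 132) in active and from 142 to 259 CPM (median 210) in not active rams, and 3 active rams lay below all not active ones. The log2 difference was -0.74 (SE 0.23). In the pars tuberalis, levels were 19.4 to 43.0 CPM (median 35.4) in active and 31.7 to 74.4 CPM (median 40.3) in not active rams. That difference, -0.42 (SE 0.23), was -0.22 without animal 7. In the pineal gland the levels were 18.3 to 37.6 CPM (median 22.4) and 20.6 to 40.7 CPM (median 27.7), with most of both ranges shared. The pineal difference was -0.21 (SE 0.23), and ran from -0.37 without active animal 6 to -0.08 without not active animal 8.

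ENSOARG00020025419 was close to silent in active rams, with 16 counts over the hypothalamus libraries, 12 over those of the pars tuberalis and 21 over the pineal ones. Not active rams held 200, 617 and 387 counts in the same order. The pooled ratio of not active to active was 59.9 in the pars tuberalis (95% counting interval 34.0 to 117), 21.8 in the pineal gland (14.1 to 35.6) and 11.9 in the hypothalamus (7.12 to 21.1). These intervals cover counting error only, not the spread between animals, which was wide. Within the not active rams the hypothalamic level ran from 0.0579 to 2.14 CPM (median 0.966). Pars tuberalis levels spanned 0.0841 to 15.4 CPM (median 1.13), and pineal levels 0.143 to 4.08 CPM (median 1.66). Animal 12 was the lowest not active ram in each tissue. Of the 617 pars tuberalis counts, 494 came from animal 11. Among the active rams animal 5 was the highest in each tissue, at 0.210, 0.197 and 0.662 CPM, and of the 21 pineal counts 16 were its own. Log2 differences were -5.75 (SE 1.25) in pars tuberalis, -4.06 (SE 1.16) in pineal gland and -3.57 (SE 1.18) in hypothalamus. Without animal 11 that of the pars tuberalis was -3.92, and as a difference of group medians (log2 CPM, prior count 2) it was -3.60. Without animal 5 that of the hypothalamus was -4.18 and that of the pineal gland -6.20.

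ENSOARG00020025432 was also a gene of few counts that stood lower in active rams. It held 7, 12 and 8 counts over the 6 active libraries (hypothalamus, then pars tuberalis, then pineal gland), against 69, 76 and 61 in not active rams. The pooled ratio of not active to active was 9.35 (95% counting interval 4.30 to 24.1), 7.38 (3.99 to 14.9) and 9.02 (4.30 to 21.8). In the pars tuberalis every not active ram, at 0.218 to 0.622 CPM (median 0.406), lay above every active ram, at 0 to 0.173 CPM (median 0.053). In the hypothalamus 5 of 6 active rams lay below all not active ones, and active animal 3, at 0.190 CPM, was inside the not active range of 0.129 to 0.864 CPM. In the pineal gland not active animals 9 and 12 stood at 0.926 and 0.572 CPM, while not active animal 11 and 3 active rams had no count. A count of 0 allows up to 3 counts at this depth, so these libraries cannot be placed in order. The log2 differences were -2.96 (SE 0.88), -2.77 (SE 0.81) and -3.16 (SE 0.86). Without animal 3 that of the hypothalamus was -3.96, and without animal 9 that of the pineal gland was -2.49. As differences of group medians (log2 CPM, prior count 2) the values were smaller, at -1.97 in hypothalamus, -2.09 in pars tuberalis and -1.25 in pineal gland.

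ENSOARG00020006897 was higher in active rams by nearly the same amount in each tissue. The log2 differences were 1.58 (SE 0.51) in the pars tuberalis, 1.43 (SE 0.50) in the pineal gland and 1.42 (SE 0.50) for hypothalamus. In active animals 1 to 6, in that order, the hypothalamus held 8.54, 16.0, 8.18, 7.36, 9.10 and 2.24 CPM. The pars tuberalis of the same animals held 7.77, 23.5, 8.09, 6.55, 6.54 and 2.25 CPM, and the pineal gland 11.2, 24.3, 10.2, 9.08, 11.5 and 7.00 CPM. Animal 2 was thus the highest and animal 6 the lowest active ram in every tissue. In not active animals 7 to 12 the hypothalamus held 1.89, 1.77, 7.76, 2.15, 2.93 and 2.72 CPM. The pars tuberalis held 3.12, 1.85, 7.79, 1.69, 1.84 and 2.02 CPM, and the pineal gland 2.66, 4.28, 11.7, 2.59, 2.85 and 3.22 CPM. Not active animal 9 stood with the active rams in all 3 tissues, and active animal 6 lay among the other not active rams in 2 of them, hypothalamus and pars tuberalis. In the order hypothalamus, pars tuberalis, pineal gland, the differences were 1.89, 2.12 and 1.97 without animal 9, and 1.14, 1.03 and 1.11 without animal 2.

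ENSOARG00020023921 was higher in active rams mainly in the hypothalamus, at 69.2 to 176 CPM (median 104) against 25.3 to 89.2 CPM (median 54.9). Of the active rams 4 lay above all not active ones, and the log2 difference was 0.96 (SE 0.28). In the pars tuberalis the gene varied little, at 244 to 286 CPM (median 265) in active and 181 to 251 CPM (median 229) in not active rams. There 5 of 6 active rams lay above all not active ones, although the log2 difference was only 0.25 (SE 0.28). Its coefficient of variation within a group was 6.56% and 10.9% in the pars tuberalis, and 34.6% to 42.9% in the 4 groups of the other tissues. In the pineal gland the ranges, 19.9 to 87.8 and 28.9 to 72.4 CPM (medians 66.1 and 48.5), shared most of their width, with a difference of 0.33 (SE 0.28). The pineal difference was 0.51 without active animal 1 and 0.21 without active animal 4.

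ENSOARG00020019510 was measured well only in the pars tuberalis, where it held 236 counts over the active and 91 over the not active libraries. Levels there were 0.930 to 1.68 CPM (median 1.12) in active and 0.365 to 1.04 CPM (median 0.448) in not active rams. Not active animal 8 was the only one of its group to reach the active range, and the log2 difference was 1.14 (SE 0.45), or 1.44 without animal 8. The hypothalamus held 21 and 25 counts over its 2 groups and the pineal gland 33 and 13, with 0 counts in 2 pineal libraries. The pooled ratio of active to not active was 2.15 for the pineal libraries (95% counting interval 1.10 to 4.44) and 0.886 for the hypothalamic ones (0.471 to 1.65). The log2 differences were 0.98 (SE 0.57) and -0.18 (SE 0.56). Without active animal 4 the pineal difference was 0.59. The hypothalamic one changed sign without animal 2, 5 or 12 (0.0042, 0.05 and 0.26). It was -0.44 without the hypothalamus library of active animal 4, which held pars tuberalis genes at 17.1% of their own level. Over the 12 hypothalamus libraries the gene's deviations had r = 0.54 with the pars tuberalis gene set. The part of tissue makeup was not tested.

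**Figure D2:**
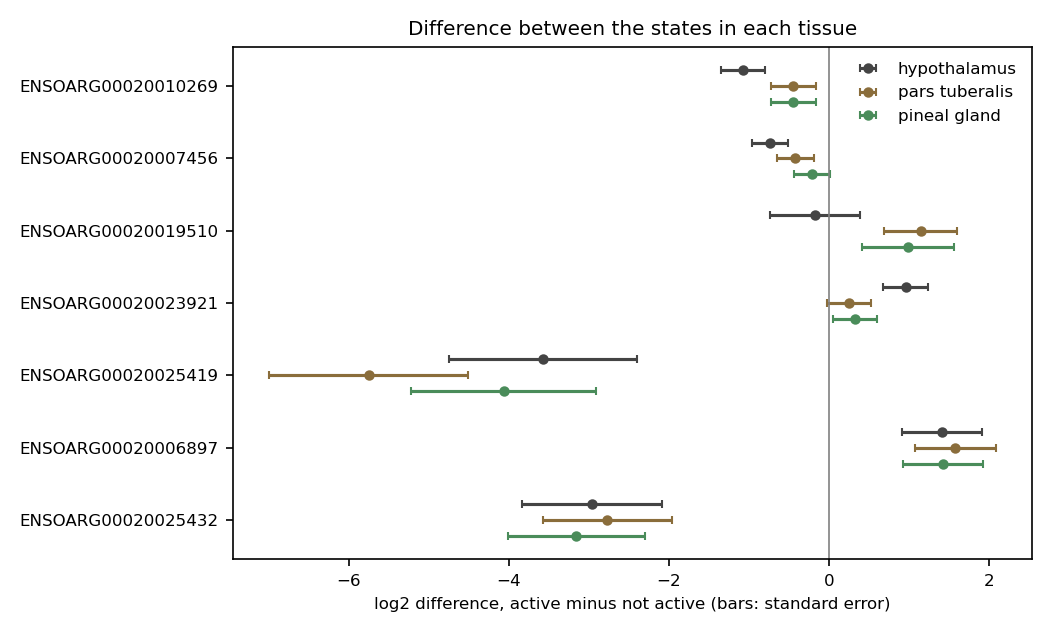
Fitted log2 difference, active minus not active, of each gene in each tissue; points are estimates from 1 fit of 36 libraries and bars are standard errors. For 4 genes the points lie left of 0 in all 3 tissues, ENSOARG00020023921 and ENSOARG00020006897 lie right of it, and ENSOARG00020019510 has -0.18 in the hypothalamus.

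The tissues were compared with both states weighted equally, a contrast that the choice of genes did not use. The filter on low counts, however, kept ENSOARG00020019510 only through its pars tuberalis libraries. In the fit without regard to animal, tissue separated 4 of the genes and left 3 at levels that did not pass the test. With the animal as a block, ENSOARG00020006897 passed too, in both pineal comparisons. The counts that follow are from the fit without the block. Between pars tuberalis and hypothalamus 4 of 7 genes passed, against 72% of tested genes. For pineal gland and hypothalamus 3 of 7 passed (63.8% of tested genes), and for pineal gland and pars tuberalis 3 of 7 (70.5%). In the same order, 1, 2 and 2 of the 7 had no overlap between the 12 libraries of one tissue and those of the other, against 22.5%, 19.9% and 29.1% of tested genes. The adjusted p values that follow come from the quasi-likelihood test of edgeR, adjusted over all 16773 genes after Benjamini and Hochberg.

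ENSOARG00020010269 and ENSOARG00020007456 were highest in the hypothalamus. ENSOARG00020010269 averaged 23.1 ± 10.0 CPM there (SD, 12 libraries), 5.68 ± 2.60 in pars tuberalis and 6.47 ± 1.67 in pineal gland. It was lower in the pars tuberalis by edgeR (log2 difference -1.94, SE 0.20, adjusted p = 2.46e-10) and in the pineal gland (-1.75, SE 0.20, adjusted p = 2.54e-09), in 12 of 12 animals each. The pineal gland and the pars tuberalis did not part by edgeR (0.19, 95% interval -0.21 to 0.59, adjusted p = 0.399). ENSOARG00020007456 fell in steps, from a mean of 166 ± 57.7 CPM in hypothalamus to 39.4 ± 13.8 in pars tuberalis and 26.8 ± 7.41 in pineal gland. By edgeR the pars tuberalis was lower than the hypothalamus by a log2 difference of -2.05 (SE 0.17, adjusted p = 7.67e-13). The pineal gland was lower than the pars tuberalis by -0.55 (SE 0.16, adjusted p = 0.00323), and this order held in 12 of 12 animals.

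ENSOARG00020023921 and ENSOARG00020019510 were highest in the pars tuberalis. ENSOARG00020023921 averaged 245 ± 29.8 CPM there (SD, 12 libraries), 84.2 ± 40.8 in hypothalamus and 55.7 ± 23.1 in pineal gland. Every pars tuberalis library lay above every library of the other tissues. By edgeR the log2 difference from the hypothalamus was 1.62 (SE 0.20, adjusted p = 1.07e-08) and the pineal gland stood -2.14 from the pars tuberalis (SE 0.20, adjusted p = 2.79e-11). The pineal level was lower than the hypothalamic one by edgeR (-0.53, SE 0.20, adjusted p = 0.0192), in 9 of 12 animals. That call was lost without animal 2 (adjusted p = 0.0857) or animal 8 (adjusted p = 0.0841) by edgeR. ENSOARG00020019510 averaged 0.866 ± 0.428 CPM in pars tuberalis, 0.143 ± 0.104 in hypothalamus and 0.0821 ± 0.0714 in pineal gland. Its log2 difference by edgeR was 2.54 against the hypothalamus (SE 0.36, adjusted p = 1.96e-07) and -3.23 for the pineal gland against the pars tuberalis (SE 0.37, adjusted p = 2.10e-09). The hypothalamus and the pineal gland did not part (-0.70, 95% interval -1.52 to 0.12, adjusted p = 0.131 by edgeR).

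The other 3 genes had no tissue that stood out in this fit. ENSOARG00020006897 averaged 8.37 ± 6.23 CPM in pineal gland, 6.08 ± 6.09 in pars tuberalis and 5.88 ± 4.36 in hypothalamus. Without regard to animal, no pair of tissues differed by edgeR (adjusted p = 0.994 for pars tuberalis against hypothalamus, 0.215 and 0.206 for the pineal gland against each of these). With the animal as a block, pairing the 3 libraries of a ram, the pineal gland was higher than the hypothalamus by edgeR (log2 difference 0.53, adjusted p = 0.00248) and higher than the pars tuberalis (0.61, adjusted p = 0.000641). The pineal level was the higher in 11 of 12 animals in each comparison. ENSOARG00020025419 had 95% intervals from -1.24 to 2.39 for the pars tuberalis against the hypothalamus, from -1.19 to 2.17 for the pineal gland against the hypothalamus and from -2.19 to 2.03 between the pineal gland and the pars tuberalis. ENSOARG00020025432 had intervals of -0.85 to 1.63, -1.67 to 0.95 and -1.96 to 0.47 in the same order. These widths leave room for differences of over 2-fold in either direction for ENSOARG00020025419.

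Whether a ram that was high in 1 tissue was high in the others was asked on deviations from the mean of its tissue and state, over 12 animals, so the difference between the states does not enter. Of 21 relations (7 genes, 3 pairs of tissues), 5 had an adjusted p below 0.05 by permutation of animals within state, with Benjamini-Hochberg adjustment over the 21. They belong to 3 genes. For ENSOARG00020006897, Pearson's r was 0.90 (hypothalamus with pars tuberalis), 0.83 (hypothalamus with pineal gland) and 0.86 (pars tuberalis with pineal gland). The permutation p values were 0.00353, 0.00316 and 0.00334, and the adjusted p was 0.0148 for each. Spearman's rho was 0.67, 0.71 and 0.63 (permutation p = 0.0260, 0.0132 and 0.0355, adjusted p = 0.109, 0.109 and 0.124). In all 3 pairs r was at least 0.6, which held for 2.49% of tested genes.

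The calls for ENSOARG00020006897 were lost on leaving out animal 2, 6 or 9. With each single animal left out, r itself was 0.84 to 0.95, 0.71 to 0.88 and 0.80 to 0.92, for the tissue pairs in the order above. Without the 2 animals farthest from the median in the first tissue, r was 0.75, 0.74 and 0.48. Those values keep the state means of all animals, so part of a difference between the states can enter them. Another alternative, without animals 2 and 9 and with the means taken anew, was chosen after the data were seen. There r was 0.785, 0.54 and 0.49 (adjusted p = 0.436 for each by permutation of the remaining animals). Without animal 9 alone, 0 of the 21 relations had an adjusted p below 0.05, without animal 2 alone 1 had, and without animal 6 alone 2 had; none of these was a relation of ENSOARG00020006897. Over 12 libraries each, its deviations gave r with library depth of 0.60 (hypothalamus), -0.25 (pars tuberalis) and -0.57 (pineal gland); its part in the result was not tested.

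ENSOARG00020025419 followed the animal between pars tuberalis and pineal gland, with r = 0.81 (permutation p = 0.00108, adjusted p = 0.0148) and rho = 0.94 (permutation p = 0.00045, adjusted p = 0.00945). Without animals 11 and 12, the farthest from the median, r was 0.95, with the state means of all animals kept. The call was lost by permutation without animal 5 (r = 0.83, adjusted p = 0.0734), without animal 9 (r = 0.83, adjusted p = 0.0659) and without both animals 2 and 9 (r = 0.83, adjusted p = 0.0909). Its hypothalamic level followed neither, with r of 0.16 and 0.39 (permutation p = 0.711 and 0.285, adjusted p = 0.747 and 0.483). Animal 11, first in the pars tuberalis at 15.4 CPM, had 2.88 CPM in the pineal gland and 0.180 CPM in hypothalamus. ENSOARG00020025432 gave r = 0.65 for pars tuberalis and pineal gland (permutation p = 0.00289, adjusted p = 0.0148) and 0.62 for hypothalamus and pars tuberalis (permutation p = 0.0350, adjusted p = 0.122). Its rho for pars tuberalis and pineal gland was 0.56 (permutation p = 0.0225, adjusted p = 0.109). Without animals 3 and 4 its r was 0.68, with the state means again kept. The call was lost by permutation without animal 2 (r = 0.66, adjusted p = 0.0604), animal 9 (r = 0.64, adjusted p = 0.101) or animal 11 (r = 0.56, adjusted p = 0.0571), without both animals 2 and 9 (r = 0.64, adjusted p = 0.216), and with a prior count of 0.5 (r = 0.58, adjusted p = 0.0577). Active animal 3 was the highest active ram for this gene in every tissue.

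**Figure D3:**
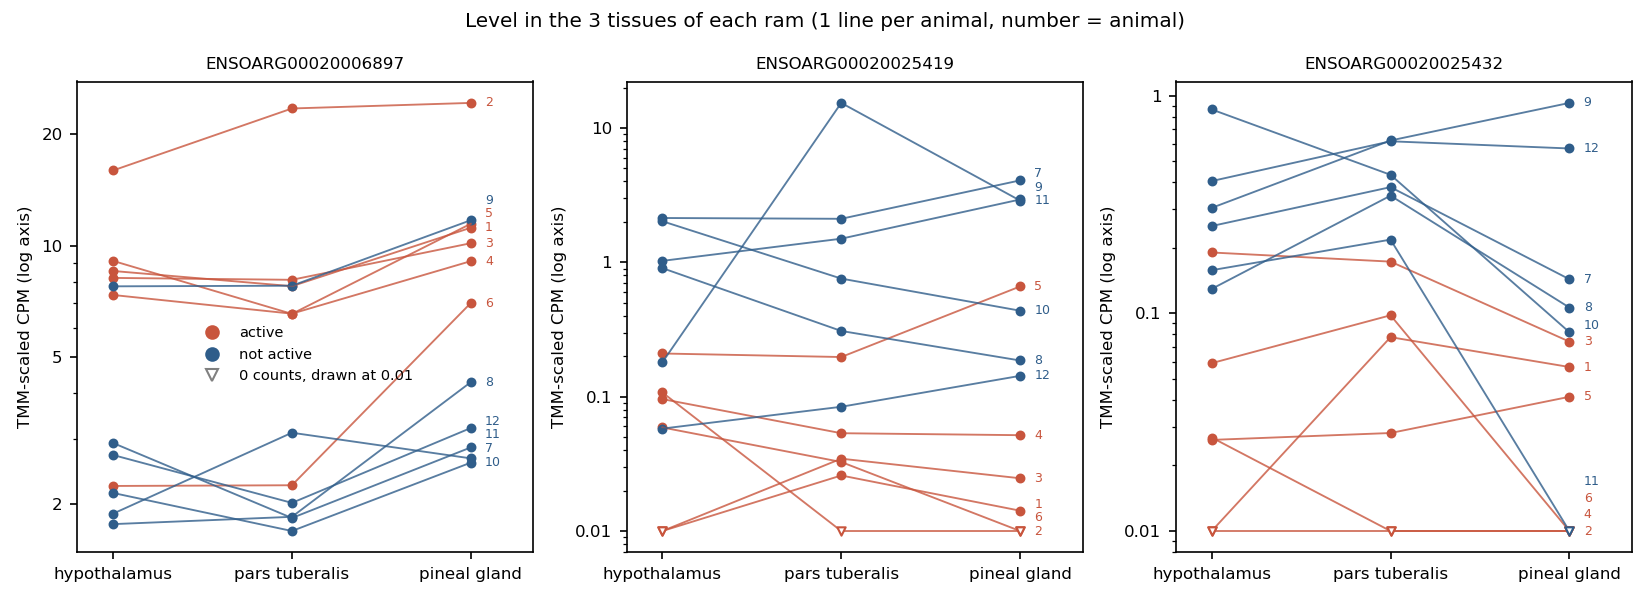
Scaled counts (CPM, log axis) of 3 genes in the 3 tissues of each ram; a line joins the 3 libraries of 1 animal, numbers name the animal, red is active and blue not active, and open triangles are libraries with 0 counts drawn at 0.01. Animal 2 is highest for ENSOARG00020006897 in every tissue, and not active animal 9 runs with the active rams.

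The other 4 genes gave r between -0.46 and 0.37 for every pair of tissues, none with an adjusted p below 0.05 (lowest adjusted p 0.425 by permutation). Over the 7 genes the median r was 0.14 (hypothalamus with pars tuberalis), 0.26 (hypothalamus with pineal gland) and 0.26 (pars tuberalis with pineal gland). Over all tested genes these medians were 0.058, 0.16 and 0.142. An r of at least 0.6 was found for 2, 1 and 3 of the 7 genes, and for 5.69%, 8.17% and 9.24% of all tested genes. For ENSOARG00020010269, which was lower in active rams in each tissue, hypothalamus and pineal deviations ran against each other (r = -0.46, rho = -0.51, permutation p = 0.155 and 0.112, adjusted p = 0.425 and 0.337).

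Whether the 7 genes rose and fell together over the 12 animals was asked on the same deviations, averaged per animal over the 3 tissues. None of the 21 pairs passed (0 with an adjusted p below 0.05 by permutation within state, and 4 with an unadjusted p below 0.05). The median r of the pairs was -0.08, where all pairs of tested genes had a median of 0.003. No pair reached an r of 0.6 (7.5% of all pairs of tested genes), and 3 lay at -0.6 or below (7.2%). Those 3 were ENSOARG00020007456 with ENSOARG00020006897 (r = -0.77, rho = -0.67), ENSOARG00020019510 with ENSOARG00020025419 (r = -0.66, rho = -0.54) and ENSOARG00020023921 with ENSOARG00020025432 (r = -0.65, rho = -0.73). Their permutation p values for r were 0.0118, 0.0134 and 0.0237, and for rho 0.0258, 0.0834 and 0.0120. The adjusted p values were 0.141, 0.141 and 0.166 for r, and 0.271, 0.438 and 0.252 for rho. Without the 2 animals farthest from the median of the first gene, r was -0.46, -0.74 and -0.92. The state means of all animals were kept there, so part of a difference between the states can enter these values. Among the 4 genes that were lower in active rams, the highest r of a pair was 0.52.

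**Figure D4:**
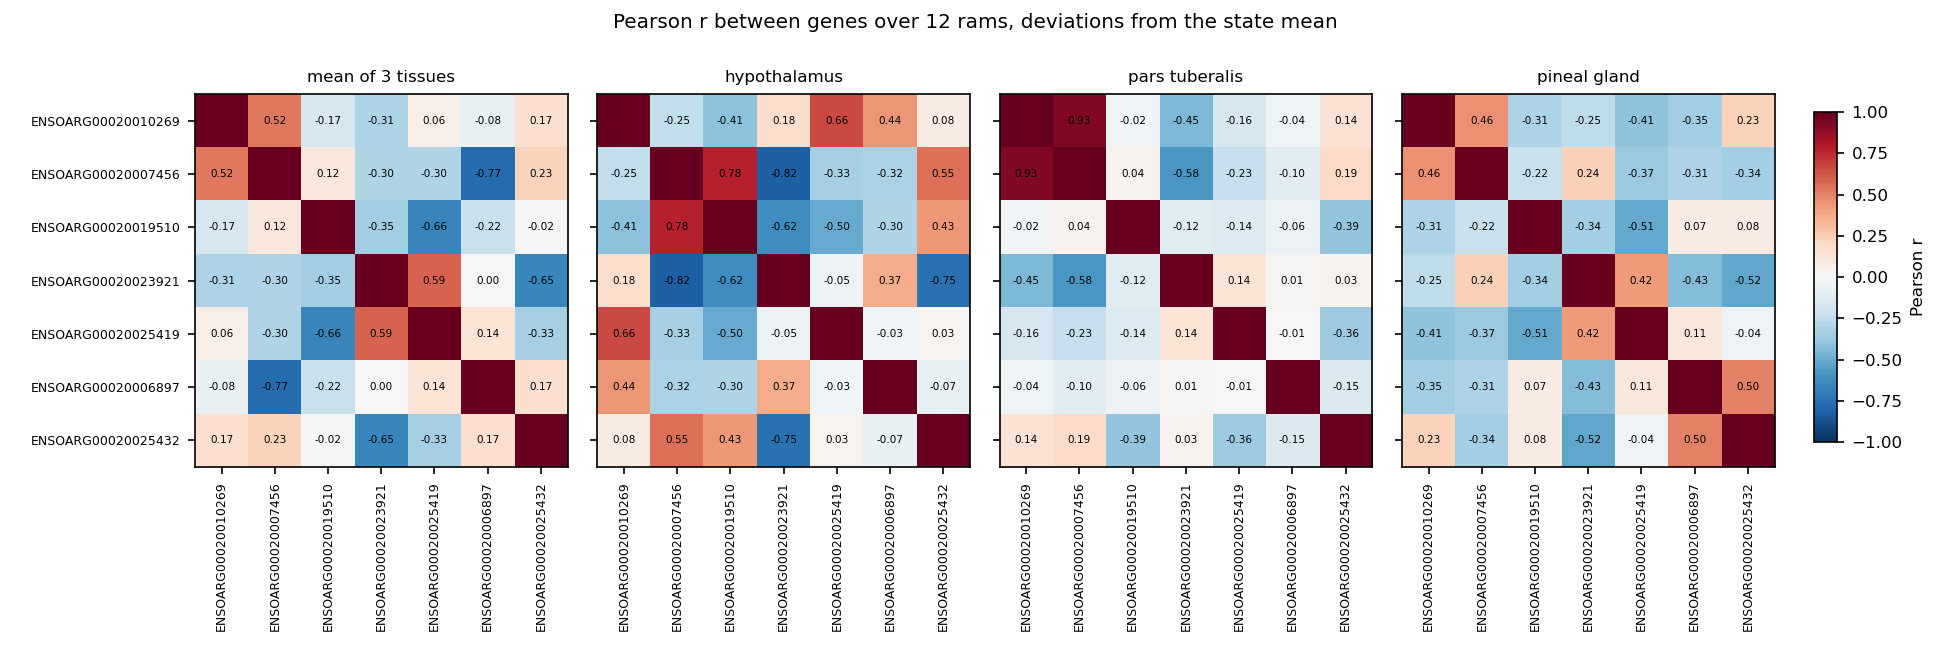
Pearson r of each pair of the 7 genes over 12 rams, for the mean of the 3 tissues and for each tissue, from log2 CPM minus the mean of the tissue and state; red is positive and blue negative. The pair ENSOARG00020010269 and ENSOARG00020007456 reads 0.93 in the pars tuberalis, 0.46 in pineal gland and -0.25 in hypothalamus.

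Within single tissues, 2 of 63 relations had an adjusted p below 0.05 by permutation, each in 1 tissue. ENSOARG00020010269 and ENSOARG00020007456 rose and fell together in the pars tuberalis, with r = 0.93 (permutation p = 3e-05, adjusted p = 0.00189) and rho = 0.97 (permutation p = 1e-05, the smallest these resamples can give, adjusted p = 0.00063). Pearson's r was 0.98 within the active and 0.95 within the not active rams. Without animals 4 and 7, the farthest from the median, it was 0.89, with the state means of all animals kept. In the pineal gland the pair had r = 0.46 and in the hypothalamus r = -0.25. Over all pairs of tested genes in the pars tuberalis, 11.3% had an r of at least 0.6, as 1 of the 21 pairs did here, and 11.1% one of -0.6 or below, as 0 of the 21 did. In the same libraries both genes ran with the level of the pineal gene set (r = 0.73 and 0.88 over 12 libraries) and against that of the pars tuberalis gene set (r = -0.66 and -0.78). With the hypothalamus gene set, of 35 genes and at 0.180% to 0.720% of its own level, r was 0.64 and 0.54. The pineal set, of 69 genes, lay between 0.0694% and 0.191% of its own level in these libraries, and the pars tuberalis set, of 43 genes, between 86.6% and 111%. The part of tissue makeup in the relation was not tested.

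In the hypothalamus ENSOARG00020007456 and ENSOARG00020023921 ran against each other, with r = -0.82 (permutation p = 0.00098, adjusted p = 0.0309) and rho = -0.85 (permutation p = 0.00121, adjusted p = 0.0381). Without animals 2 and 8, with the state means of all animals kept, r was -0.67. Within each state the sign was the same, at -0.91 in active and -0.78 in not active rams. The call was not stable to the animals included. It was lost on leaving out any one of animals 1, 2, 3, 6, 7, 8, 9 and 10, with r between -0.87 and -0.77 and adjusted p by permutation between 0.0558 and 0.172. It was also lost without animals 4 and 10, whose hypothalamus and pineal libraries stand apart (r = -0.91, adjusted p = 0.0605 by permutation), and without animals 2 and 9 (r = -0.77, adjusted p = 0.288 by permutation). In the hypothalamus 2 of 21 pairs had an r of at least 0.6 and 3 one of at most -0.6, against 11.2% and 10.7% of all pairs of tested genes. In the pineal gland no pair reached 0.6 in either direction (7.77% and 7.54% of all pairs). Genes that vary together also tend to be picked together, so these relations are not independent of the choice.

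**Figure D5:**
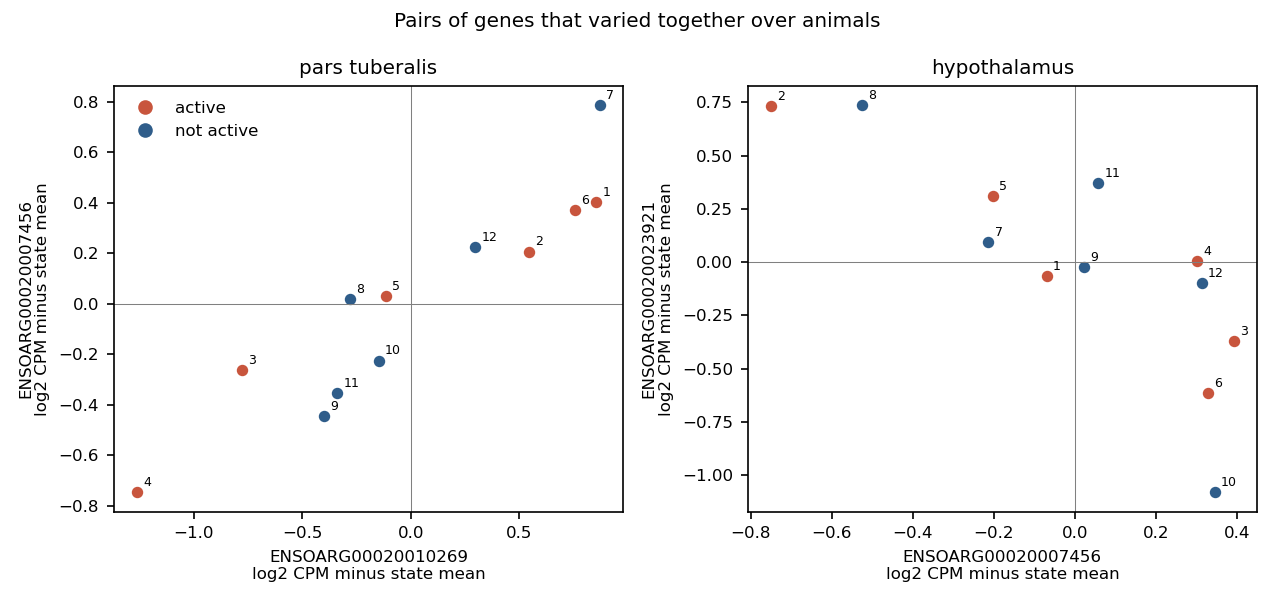
Deviation from the state mean (log2 CPM) of 2 genes against each other in the 12 pars tuberalis libraries (left, ENSOARG00020010269 and ENSOARG00020007456) and the 12 hypothalamus libraries (right, ENSOARG00020007456 and ENSOARG00020023921); numbers name the animal, red is active and blue not active. The left points rise along a line (r = 0.93) and the right points fall (r = -0.82).

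For each of the 7 genes, the most similar other gene was also sought. It is the highest of the 14858 or 14859 genes compared, so its r is not set beside that of pairs of the 7. Over the 36 libraries, on deviations from the 6 group means and among genes with a mean of at least 1 CPM, ENSOARG00020007456 was nearest to ENSOARG00020016727 (r = 0.82), and 503 genes reached an r of 0.6 with it. ENSOARG00020010269 was nearest to ENSOARG00020013651 (r = 0.77, 59 genes at 0.6 or above) and ENSOARG00020023921 to ENSOARG00020013539 (r = 0.72, 20 genes). For ENSOARG00020006897 the nearest was ENSOARG00020017928 (r = 0.69, 7 genes). The 3 genes of few counts had few such neighbours. ENSOARG00020019510 was nearest to ENSOARG00020018456 (r = 0.62) and ENSOARG00020025432 to ENSOARG00020015758 (r = 0.61), each the single gene at 0.6 or above. ENSOARG00020025419 had none, its nearest being ENSOARG00020004283 (r = 0.59). These values rank likeness over libraries that share animals and tissues, and carry no test.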

How the data were processed

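The deposited table holds raw counts, whole and without any normalisation, of 26478 Ensembl sheep gene IDs in 36 libraries. Per the labels' protocols, stranded messenger RNA libraries with unique molecular identifiers were sequenced as read pairs. Per the submitters' processing notes, the tools were HTSeq, FastQC, edgeR and STAR 2.7.8a; their roles are not stated. Not given in the sources used here are the build, the annotation release, the strand setting, how reads matching several genes were treated and whether molecular identifiers were collapsed. Near-identical or overlapping genes are therefore uncertain, and reads that copy 1 molecule may be counted more than once. No column of the counts was left unused, and 0 IDs matched a symbol in the reference table, so the symbol lists and cell markers set out for this work were not used.

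Counts were analysed with edgeR 4.0.16 in R 4.3.3. The default filter (minimum count 10) kept 16773 genes, libraries were scaled by TMM, and 1 quasi-likelihood fit with robust spread took 6 group means over the 36 libraries (30 residual degrees of freedom). Calls are at a Benjamini-Hochberg adjusted p below 0.05. A standard error (SE) is the absolute log2 difference over the square root of F. A tissue set holds genes whose median reaches 20 CPM in 1 tissue and is 50 times that of both others. Covariation used log2 CPM (prior count 2) minus the mean of the tissue and state, with 100000 two-sided permutations of animals within state. For r without the 2 animals farthest from the median, the means of all animals were kept, so part of a difference between the states can enter. In the other runs without animals the means were taken anew. The scripts were tested on simulated data.

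Animal numbers in the labels tie the 3 tissues of each ram together and so pair the libraries. Over 14859 genes, the deviations of the same animal correlated at a median of 0.061 between hypothalamus and pars tuberalis, 0.183 between hypothalamus and pineal gland and 0.204 between pars tuberalis and pineal gland. A second fit of the tissue contrasts blocked on the animal. Other alternatives were DESeq2 1.42.0, its size factors, no filter, other prior counts (0.5 and 5), ranks, single-tissue fits, group medians, and leaving out single libraries or animals.

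The members and lists were chosen with earlier results of these data known. The named genes are the 7 members and, for each, the gene most like it over the libraries. Replicates are separate rams, per the labels.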

Additional observations from a re-analysis of the deposited data

Results flagged for a closer look

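In 11 of the 42 groups of 6 libraries (7 genes, 6 groups), 1 library stood apart from the other 5. The gap, as a share of the group's range, passed Dixon's 95% critical value. That value holds for normal spread, while these CPM were not logged and some rest on few counts. The groups also share animals, so no chance rate is set beside the 11. Each flagged library was the highest of its group. Of the 11, 5 belong to ENSOARG00020006897 and to animals 2 and 9. Not active animal 9 stood at 7.76 CPM in the hypothalamus (next 2.93), 7.79 in the pars tuberalis (next 3.12) and 11.7 in the pineal gland (next 4.28). Active animal 2 stood at 23.5 CPM in the pars tuberalis (next 8.09) and 24.3 in the pineal gland (next 11.5).

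Another 3 belong to ENSOARG00020025419. Active animal 5 stood at 0.197 CPM in the pars tuberalis (next 0.0535) and 0.662 in the pineal gland (next 0.0517), and not active animal 11 at 15.4 CPM in the pars tuberalis (next 2.11). The other 3 were ENSOARG00020019510 in the hypothalamus of not active animal 12, at 0.405 CPM (next 0.173), and in the pars tuberalis of not active animal 8, at 1.04 CPM (next 0.529), and ENSOARG00020025432 in the hypothalamus of active animal 3, at 0.190 CPM (next 0.059).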

How the results depend on the processing

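Over the 18 alternatives the tissue comparisons called 4, 2 to 4 and 3 to 4 of the 7 genes, where 4, 3 and 3 are reported. With the replicate block (the animal) the counts were 4, 4 and 4; the additions were ENSOARG00020006897 in both pineal comparisons, and the block changed no other call. Several small log2 differences changed sign without passing the test. For pars tuberalis minus hypothalamus, ENSOARG00020006897 gave -0.0135 with no filter and -0.0755 with the replicate block, and -0.131 to 0.0801 with each animal left out. ENSOARG00020025419 gave -0.131 with the block there (-0.454 to 0.826 with each animal left out). For pineal gland minus hypothalamus it gave -0.0311 with the block (-0.278 to 0.740). For pineal gland minus pars tuberalis it gave 0.10 with the block, 0.0395 with DESeq2 and 0.0204 without the pineal library of animal 10 (-0.722 to 0.748). ENSOARG00020025432 ran from -0.707 to 0.0108 for pineal gland minus hypothalamus with each animal left out.

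Of the 21 state differences 13 were below 0, and 12 to 13 over the alternatives; that of ENSOARG00020019510 in the hypothalamus was 0.341 as a difference of group medians and -0.441 to 0.262 with each animal left out. Relations of 1 gene between tissues numbered 5, then 1 by Spearman's rho, 0 without animals 2 and 9 (an alternative added after the data were seen), and 0 to 6 with each animal left out. Pairs within a tissue numbered 2, then 1 without animals 4 and 10, 1 without animals 2 and 9, and 1 to 3 with each animal left out. Pairs over the mean of the tissues numbered 0 in every alternative. Leaving out animals leaves fewer of them to permute; the cause was otherwise not tested. Fits of a single tissue gave no value for genes that failed the filter there. Few counts limit ENSOARG00020019510, ENSOARG00020025419 and ENSOARG00020025432 most.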
